A study of Mus musculus with 14 samples.

Results

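The 10 genes described here encode 3 alpha-tubulins (Tuba1a, Tuba1b and Tuba1c), 5 beta-tubulins (Tubb2a, Tubb2b, Tubb4b, Tubb5 and Tubb6) and the 2 cytoplasmic actins (Actb and Actg1). They were picked by gene name from the 49584 genes of an FPKM table, with earlier results of these data known. Counts and medians of the 10 set beside those of all genes are therefore descriptions, not tests of the set. All 10 were found and passed the filter on low values with 15193 genes in all. FPKM is reads per gene scaled by gene length and by the reads of the library. The table covers 14 mouse kidney libraries in 4 groups: untreated wild-type (WT, n = 3), untreated cKO (n = 3), cisplatin-treated WT (n = 4) and cisplatin-treated cKO (n = 4), where cKO is a conditional knockout of Ripk4, a receptor-interacting protein kinase. Treated mice were given cisplatin, a platinum drug that damages DNA and injures kidney tubules, at 15 mg/kg into the peritoneum, and their kidneys were collected after 4 days. The labels used here do not name the Cre line, the cells that carry the deletion, or the strain, sex and age of the mice, and whole kidney RNA was measured.

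Alpha- and beta-tubulin pair into the dimers from which microtubules are built, and each is encoded by several genes whose proteins, the isotypes, are nearly alike. Cells adjust their tubulin mRNAs to the amount of free dimer: TTC5 recognises the first residues of a newly made tubulin chain on the ribosome and triggers decay of the mRNA being translated. Actb and Actg1 encode beta- and gamma-actin, which form the filaments of the cell cortex and of the microvilli of the proximal tubule. Free actin monomer holds back the MRTF cofactors of the transcription factor SRF, and SRF binds CArG boxes in actin and other cytoskeletal genes. Actb is also widely used as a reference gene in expression assays.

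The reads assigned to genes, as read from the steps of the FPKM values, came to 36.7 to 77.0 M per library. Tubb2b and Tubb6, the lowest of the 10 genes, had at least 286 reads in every library. Ripk4 itself was at 7.18 to 8.51 FPKM in untreated WT and 3.68 to 4.61 in untreated cKO, and at 7.61 to 13.3 and 3.61 to 9.09 after cisplatin, where the groups overlapped. Umod, the thick limb protein uromodulin, was at 1540 to 2579 FPKM in all 14 libraries. The library labelled cKO cisplatin replicate 4 stood apart from its group and lay with the untreated libraries: its summed FPKM of 6 red blood cell genes was 773, against 1.19 to 2.37 in the other 3 cKO cisplatin libraries and 538 to 1134 in the untreated ones. Its Havcr1, the tubular injury marker KIM-1, was 5.38 FPKM against 35.2 to 70.8 in the other 3. For cisplatin in cKO, calls and separate groups are given with and without this library. For cKO against WT after cisplatin and for the difference of the responses, calls are given both ways. Fold changes of those comparisons are given with it only. Both cisplatin libraries numbered 1 also stood apart, with podocyte markers summing to 45.0 FPKM in WT and 71.9 in cKO, against 136 to 204 in the other 12. Replicate numbers only name libraries, and nothing in the labels says that libraries of a group came from separate animals, so p-values measure the spread between these samples.

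The first coding bases are shown because they encode the residues read in tubulin autoregulation, and because likeness between these genes bears on how reads are assigned. Capitals mark the first 12 coding bases, taken from the GENCODE M21 transcripts on mm10.
Tuba1a: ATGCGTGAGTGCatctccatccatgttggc
Tuba1b: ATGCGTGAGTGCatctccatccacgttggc
Tuba1c: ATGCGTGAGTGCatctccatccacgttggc
Tubb2a: ATGCGCGAGATCgtgcacatccaggcgggc
Tubb2b: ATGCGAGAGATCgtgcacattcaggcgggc
Tubb4b: ATGAGGGAGATCgtgcacctgcaggctggg
Tubb5: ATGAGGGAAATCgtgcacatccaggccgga
Actb: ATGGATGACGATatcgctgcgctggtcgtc
Actg1: ATGGAAGAAGAAatcgccgcactcgtcatt
The 3 alpha-tubulins share all 12 bases. The 4 beta-tubulins shown each have a run of their own in bases. Read as codons, all 4 runs encode the same residues, Met-Arg-Glu-Ile. The actins start differently from the tubulins and from each other.

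Across whole coding sequences the alpha-tubulins were 97.19 to 98.3% identical in base sequence, and Tubb2a and Tubb2b were 96.49% identical. The other beta-tubulin pairs were 79.85 to 84.19% identical, and Actb and Actg1 88.65%. Of all 100-base windows in the transcripts, 49.2% of those of Tuba1a, 65.6% of Tuba1b and 53.4% of Tuba1c also occur in another gene. For Tubb2a and Tubb2b the share was 36.9% and 27.8%, mostly with each other. Actg1 shared 51.1% of its windows with 6 pseudogenes, whose summed mean level was 9.82 FPKM against 708 for Actg1, and Tubb4b shared 29.2% with 3 pseudogenes at 2.22 FPKM. Tubb5 and Tubb6 had no shared window and Actb 1.10%. The way reads matching several genes were counted is not given in the sources used here, so levels within the alpha trio and within the Tubb2a and Tubb2b pair are less certain than those of Tubb5, Tubb6 and Actb.

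In untreated WT kidney the actins were the most abundant of the 10 genes by length-scaled level, with means of 589 FPKM for Actg1 and 568 for Actb, which ranked 122 and 128 among all genes of the table. Tubb4b, a beta-tubulin found in most tissues and abundant in cilia, followed at 163 ± 3.59 FPKM (SD, n = 3), rank 675. Tuba1b was at 63.0 ± 1.38, Tubb5 at 44.6 ± 3.86, Tuba1c at 24.5 ± 1.29, Tuba1a at 19.2 ± 1.19 and Tubb2a at 11.99 ± 0.566 FPKM (SD, n = 3). Tubb6 at 4.54 ± 0.648 and Tubb2b at 3.92 ± 0.661 FPKM (SD, n = 3) were lowest. The libraries of neighbours in this order overlapped for Actg1 and Actb and for Tubb6 and Tubb2b, and were separate for the other 7 neighbouring pairs. After cisplatin in WT, separate neighbours were left at 3 steps of the order: Actg1 over Tubb4b, Tubb4b over Tuba1b, and Tuba1a over Tubb6.

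**Figure D1:**
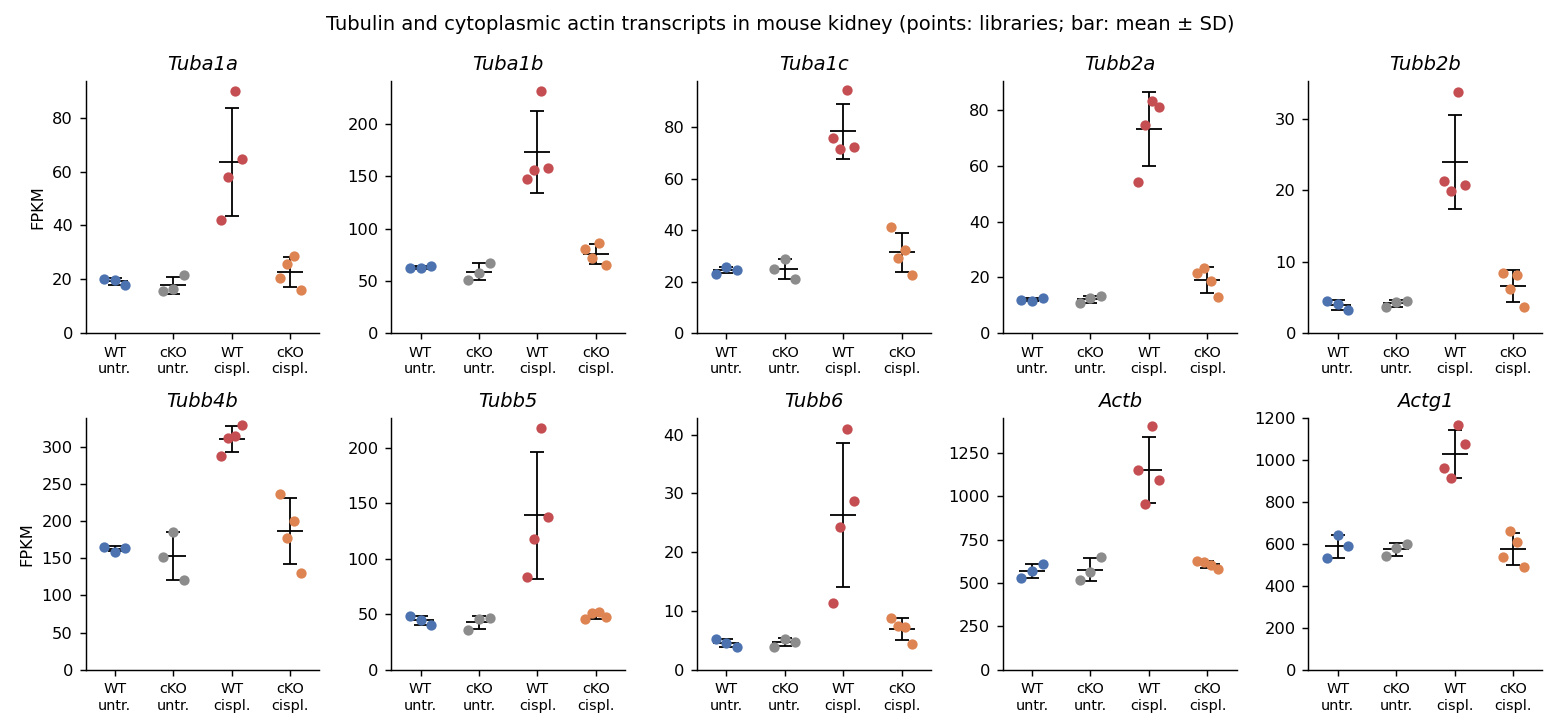
FPKM of each gene (vertical axes from 0, separate scale per panel) in WT and cKO kidneys, untreated (untr.) or 4 days after cisplatin (cispl.); points are libraries and bars are mean ± SD. In every panel the 4 WT cisplatin points lie above all points of the other 3 groups.

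With cisplatin in WT mice all 10 genes rose, and in each of them the 4 treated libraries lay above the 3 untreated ones. A call here is an adjusted p under 0.05 in a limma model of log2(FPKM + 1) over all 14 libraries, with Benjamini-Hochberg adjustment over 15193 genes. Of all genes tested, 22.3% rose and 12.1% fell, and 24.6% had all treated libraries above all untreated ones. The median log2 fold change was 1.58 over the 10 genes and 0.10 over all genes tested. The rises were largest for Tubb2a, Tubb2b and Tubb6, the beta-tubulins that were lowest without drug, and smallest for Actg1, Tubb4b and Actb, the genes that were highest.

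Tuba1a (ENSMUSG00000072235, mm10 chromosome 15, 98949841 to 98953551), the alpha-tubulin known for its part in developing neurons, was at 19.9, 19.8 and 17.8 FPKM in the untreated WT libraries. After cisplatin it was at 41.9, 57.9, 89.9 and 64.5 FPKM. The groups did not overlap, and replicate 3 was the highest. Its mean went to 63.6 ± 19.95 FPKM (SD, n = 4), a log2 fold change of 1.63 ± 0.23 (SE, limma adjusted p = 1.68e-04).

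Tuba1b (ENSMUSG00000023004, chromosome 15, 98931425 to 98934565), the main alpha-tubulin of dividing cells, was at 61.8, 62.6 and 64.5 FPKM untreated and 147, 157, 232 and 158 FPKM after cisplatin. Replicate 3 stood above 3 closely spaced libraries. The log2 fold change was 1.42 ± 0.15 (SE, limma adjusted p = 3.36e-05). Tuba1c (ENSMUSG00000043091, chromosome 15, 99029891 to 99038105) was at 23.1, 25.7 and 24.6 FPKM untreated and 75.8, 71.4, 94.3 and 72.2 FPKM treated. Its groups lay far apart, with a log2 fold change of 1.63 ± 0.17 (SE, limma adjusted p = 2.93e-05). These 3 genes lie close together, and in the M21 annotation Tuba1a and Tuba1b overlap the gene model Gm49450 on their own strand and Tuba1b an antisense model, Gm41396. The strand setting of the counting is not given in the sources used here, so reads of such partners cannot be told apart.

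Tubb2a (ENSMUSG00000058672, chromosome 13, 34074301 to 34078008) had the largest rise of the 10. It was at 11.9, 11.5 and 12.6 FPKM in untreated WT and 54.3, 74.7, 83.4 and 81.4 FPKM after cisplatin. The groups were far apart, and the ratio of the means was 6.13. The log2 fold change was 2.50 ± 0.18 (SE, limma adjusted p = 5.69e-06), a rise matched or exceeded by 97 of the 15193 genes tested, itself included. Its close relative Tubb2b (ENSMUSG00000045136, chromosome 13, 34127008 to 34130354), which like Tubb2a is known from neurons, was at 4.53, 4.0 and 3.22 FPKM untreated and 21.3, 19.9, 33.8 and 20.7 FPKM treated. Replicate 3 was again highest, and the log2 fold change was 2.32 ± 0.24 (SE, limma adjusted p = 2.61e-05). The ratio of Tubb2a to Tubb2b was 3.13 ± 0.682 (SD, n = 3) untreated and 3.17 ± 0.773 (SD, n = 4) treated, a difference within the spread between libraries.

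Tubb6 (ENSMUSG00000001473, chromosome 18, 67390717 to 67402748), a divergent beta-tubulin, was at 5.21, 4.48 and 3.92 FPKM untreated and 11.3, 24.2, 41.0 and 28.8 FPKM treated. The treated libraries spread widely, and the lowest, replicate 1, was still above all untreated ones. The log2 fold change was 2.18 ± 0.32 (SE, limma adjusted p = 2.40e-04). Tubb5 (ENSMUSG00000001525, chromosome 17, 35833921 to 35838306), the beta-tubulin of most dividing cells, was at 48.2, 45.0 and 40.5 FPKM untreated and 83.4, 118, 218 and 137 FPKM treated. The same pair of treated libraries gave its lowest and highest values, and the log2 fold change was 1.54 ± 0.23 (SE, limma adjusted p = 2.52e-04). Tubb4b (ENSMUSG00000036752, chromosome 2, 25222160 to 25224702) was at 165, 159 and 164 FPKM untreated and 287, 312, 314 and 328 FPKM treated. Both groups were tight and well separated, with the smallest rise of the tubulins, a log2 fold change of 0.92 ± 0.17 (SE, limma adjusted p = 0.00122). Its gene overlaps Fam166a on the other strand.

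Actb (ENSMUSG00000029580, chromosome 5, 142903115 to 142906754) was at 528, 571 and 606 FPKM in untreated WT and 1153, 954, 1407 and 1094 FPKM after cisplatin. The groups did not overlap, the ratio of the means was 2.03, and the log2 fold change was 1.01 ± 0.13 (SE, limma adjusted p = 8.73e-05). Actg1 (ENSMUSG00000062825, chromosome 11, 120345690 to 120348542) was at 534, 642 and 591 FPKM untreated and 960, 916, 1167 and 1076 FPKM treated. It too had separate groups, with the smallest rise of the 10 genes at 0.80 ± 0.12 (SE, limma adjusted p = 3.47e-04). The ratio of Actb to Actg1 was 0.968 ± 0.0713 (SD, n = 3) untreated and 1.12 ± 0.101 (SD, n = 4) treated, and its libraries overlapped between the groups.

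All 10 rises in WT were called under each alternative processing run, with adjusted p up to 0.00722. Rescaling the libraries so that the median of all genes did not move took the log2 fold changes down by about the 0.10 that all genes had risen, to 2.38 for Tubb2a and 0.68 for Actg1, and lowered the share of higher genes among all called genes from 64.9 to 51.7%.

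**Figure D2:**
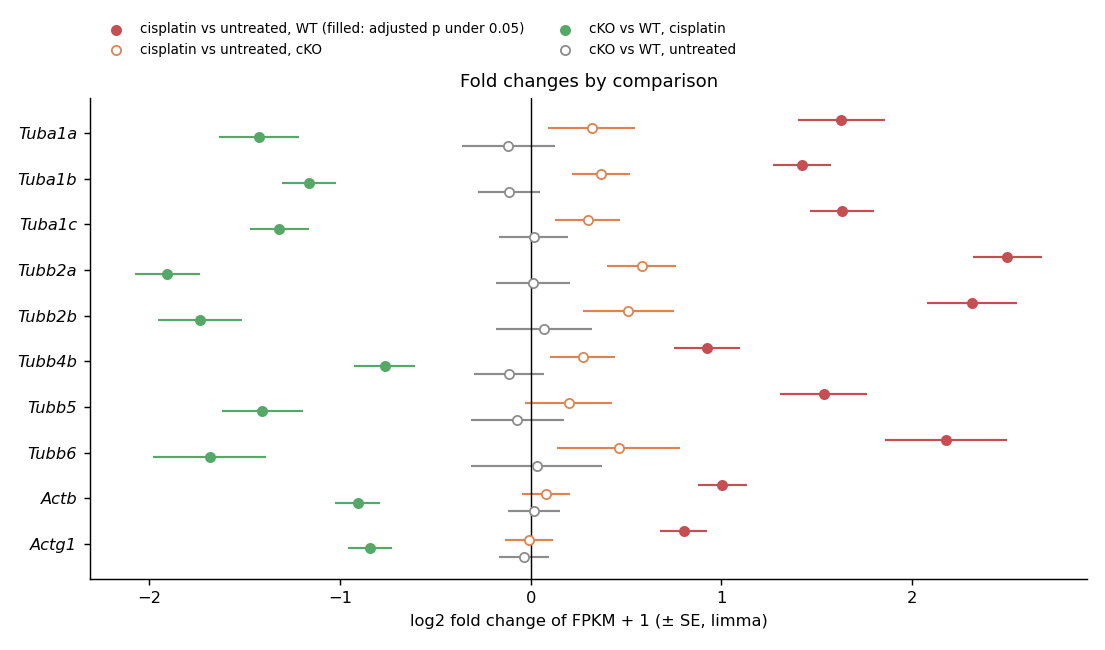
Log2 fold change of FPKM + 1 (horizontal axis) for each gene in 4 comparisons; lines are ± SE from the limma model, filled points have an adjusted p under 0.05 and open points do not. Cisplatin in WT gave 0.80 to 2.50 and cKO against WT after cisplatin −1.91 to −0.77, both filled throughout, while both other comparisons are open.

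The unequal rises shifted the make-up of the tubulin transcripts. Summed over the 8 alpha-tubulin genes of the table, FPKM went from 234 ± 9.61 (SD, n = 3) to 473 ± 54.3 (SD, n = 4) with cisplatin in WT, and over the 8 beta-tubulin genes from 228 ± 6.64 to 574 ± 97.4. The largest alpha-tubulin transcript of untreated kidney was Tuba4a, which is not among the 10 genes. Tuba4a was at 127 ± 10.9 FPKM (SD, n = 3) untreated and 157 ± 22.5 (SD, n = 4) treated and was not called (0.30 ± 0.13, limma adjusted p = 0.0867). Its share of the alpha sum was 51.4 to 56.3% in untreated WT libraries and 24.8 to 41.7% in treated ones. The share of Tuba1b was 25.7 to 28.1% untreated and 32.3 to 41.9% treated, and that of Tuba1c 9.59 to 11.5% and 16.2 to 17.0%. Among beta-tubulins the share of Tubb4b was 70.2 to 73.1% untreated and 45.5 to 62.7% treated, and that of Tubb2a 5.06 to 5.599% and 11.9 to 13.6%. None of these ranges overlapped between the 2 WT groups. The share of Tubb5 did overlap, at 18.01 to 20.4% and 18.2 to 31.5%. The 8 tubulins summed to 0.290 ± 0.0261 times the 2 actins untreated (SD, n = 3) and 0.407 ± 0.0459 times treated (SD, n = 4).

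**Figure D3:**
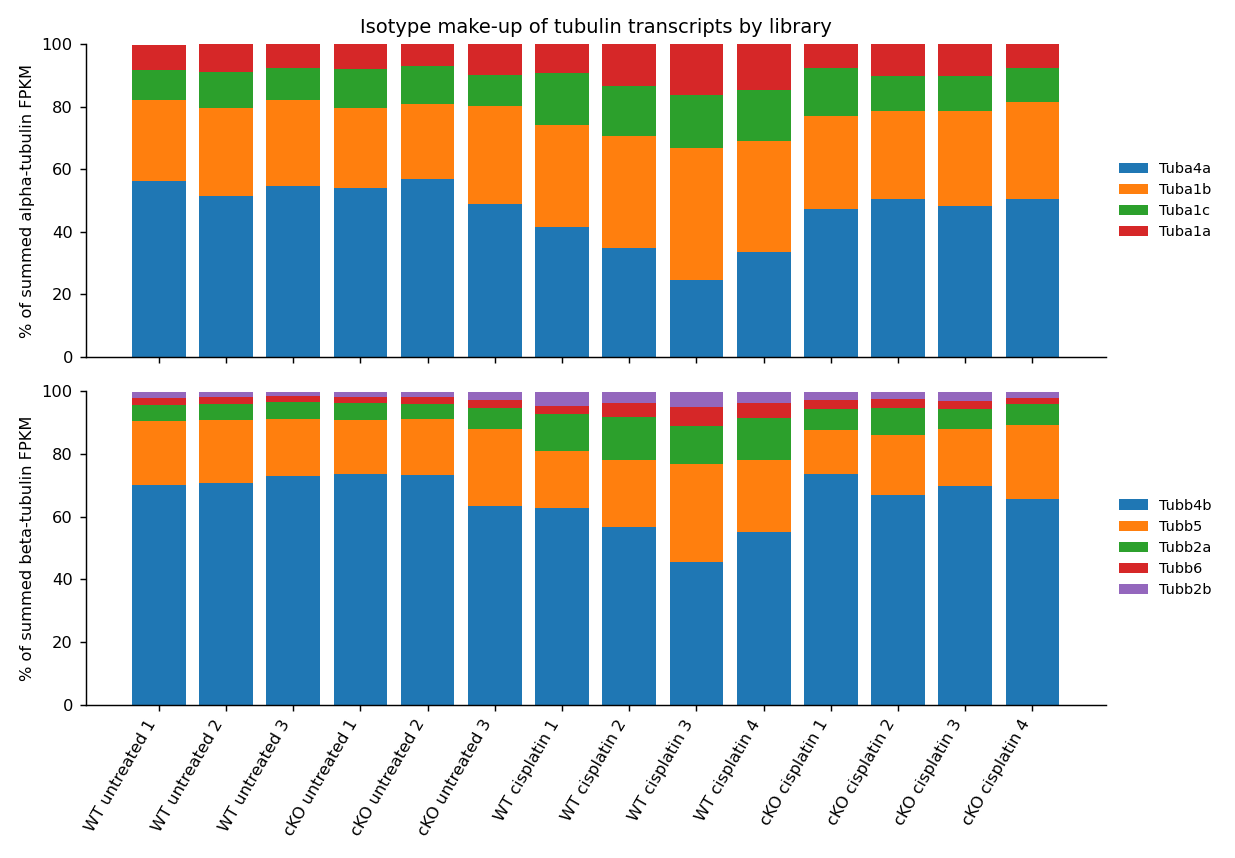
Share of each gene in the summed FPKM of 8 alpha-tubulin genes (top) and 8 beta-tubulin genes (bottom) in each of the 14 libraries; genes with very small shares are not drawn. The Tuba4a and Tubb4b segments are shortest in the WT cisplatin libraries, at 24.8 to 41.7% and 45.5 to 62.7%.

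In cKO mice none of the 10 genes was called after cisplatin, and in 0 of the 10 did the treated libraries lie wholly above the untreated ones, against 7.17% of all genes. In that comparison 0% of all genes rose and 0.0197% fell at the same threshold, so few genes of any kind were called, and at an unadjusted p under 0.05 it was 3 of the 10 (Tuba1b, Tubb2a and Tubb2b) against 11.5% of all genes. The median log2 fold change was 0.31 over the 10 genes and 0.02 over all genes. Tubb2a was at 10.8, 12.4 and 13.2 FPKM untreated and 21.4, 23.2, 18.6 and 12.9 FPKM treated. Replicate 4 lay among the untreated libraries and the other 3 above them, and the log2 fold change was 0.58 ± 0.18 (SE, limma adjusted p = 0.211). Tubb2b was at 3.59, 4.31 and 4.53 FPKM untreated and 8.35, 6.19, 8.16 and 3.66 FPKM treated, with the same split (0.51 ± 0.24, SE, limma adjusted p = 0.428). Actb, at 518, 562 and 651 FPKM untreated and 625, 622, 605 and 582 FPKM treated, overlapped throughout (0.08 ± 0.13, 95% interval −0.19 to 0.35, limma adjusted p = 0.871). Actg1 was at 541, 580 and 602 FPKM untreated and 539, 662, 609 and 488 FPKM treated (−0.01 ± 0.12, 95% interval −0.28 to 0.26, limma adjusted p = 0.994). The other 6 genes had log2 fold changes of 0.20 to 0.46.

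The library labelled cKO cisplatin replicate 4 weighed on this comparison. In it 8 of the 10 genes were within the range of the untreated cKO libraries, and Actg1 and Tubb5 were outside it, Actg1 below and Tubb5 above. Without it, Tuba1b, Tuba1c, Tubb2a, Tubb2b and Tubb6 had all 3 treated libraries above all untreated ones, 5 of 10 genes, against 15.6% of all genes. Tubb2a was then called, at 21.1 ± 2.32 FPKM (SD, n = 3) against 12.1 ± 1.21 (SD, n = 3), a log2 fold change of 0.75 (limma adjusted p = 0.0272), where 1.13% of all genes rose. The other 9 genes were not called without it.

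Between the genotypes without drug, 0 of the 10 genes were called and 0 had separate groups, where 2.01% of all genes had all cKO libraries above all WT ones and 4.25% had them below. At the threshold 0% of all genes were called in that comparison, and at an unadjusted p under 0.05 it was 0 of the 10 and 0.810% of all genes. The log2 fold changes, cKO minus WT, ran from −0.12 for Tuba1a to 0.07 for Tubb2b. The 95% interval was −0.27 to 0.31 for Actb and −0.41 to 0.43 for Tubb2a. These intervals use a spread estimated over all 14 libraries, the more variable cisplatin groups included. With that spread and 3 libraries a group, a small difference in either direction was not detectable.

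After cisplatin all 10 genes were lower in cKO than in WT, and in each the 4 cKO libraries lay below the 4 WT ones. Of all genes tested, 18.1% were lower and 8.77% higher at the threshold, and 13.8% had all cKO libraries below all WT ones. The median was −1.36 over the 10 genes and −0.11 over all genes. Tubb2a was lower by the most, at 19.04 ± 4.54 FPKM (SD, n = 4) in cKO against 73.5 ± 13.3 (SD, n = 4) in WT, a log2 difference of −1.91 ± 0.17 (SE, limma adjusted p = 7.87e-05). Tubb2b at −1.74 ± 0.22, Tubb6 at −1.68 ± 0.30, Tuba1a at −1.43 ± 0.21, Tubb5 at −1.41 ± 0.21, Tuba1c at −1.32 ± 0.16 and Tuba1b at −1.16 ± 0.14 (SE) followed. Actb was at 608 ± 19.6 FPKM (SD, n = 4) in cKO against 1152 ± 189 (SD, n = 4) in WT, −0.91 ± 0.12 (SE, limma adjusted p = 2.81e-04). Actg1 was at −0.84 ± 0.12 and Tubb4b at −0.77 ± 0.16 (SE, limma adjusted p = 0.00411), the weakest of the 10. All 10 stayed called without cKO cisplatin replicate 4 and in every other setting run. Without cKO cisplatin replicate 4 the cKO mean was higher for all 10 genes, so the differences above are larger than without it. Tubb2a was then at 21.1 ± 2.32 FPKM (SD, n = 3). Tubb4b was at 205 ± 29.9 FPKM (SD, n = 3), against 186 ± 44.4 (SD, n = 4) with it. The remaining cKO libraries still lay below all WT ones for each gene. Rescaling so that the median of all genes did not move raised the share of higher genes among called genes from 32.6 to 47.4%.

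The test of the difference itself, the cisplatin response in cKO minus that in WT, called 8 of the 10 genes, all with a smaller response in cKO, where 2.65% of all genes were called in that direction. For Tubb2a the difference was −1.92 ± 0.26 (SE, limma adjusted p = 0.0101) and for Tubb2b −1.80 ± 0.33 (adjusted p = 0.0166, limma). Tuba1a, Tuba1b, Tuba1c and Tubb5 differed by −1.31, −1.05, −1.33 and −1.34, Actb by −0.92 ± 0.18 and Actg1 by −0.81 ± 0.18 (SE). Tubb6, at −1.72 ± 0.45 (SE, limma adjusted p = 0.0525), and Tubb4b, at −0.65 ± 0.24 (SE, limma adjusted p = 0.144), were not called. The number of calls depended on the libraries used. It was 2 without WT untreated replicate 2, WT untreated replicate 3 or cKO untreated replicate 3, and 3 without WT untreated replicate 1. It was 4 without cKO untreated replicate 2, 5 without WT cisplatin replicate 4 and 6 without cKO cisplatin replicate 4. Fewer of all genes were called as well, so the loss was not particular to the 10. Of all genes, 403 were called lower in the main fit and 49, 53 and 55 in the fits with 2 calls. In the other fits named it was 147, 124, 209 and 204 genes, in the order given. The sign was negative for all 10 genes in each of these fits.

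The sequence upstream of the start was looked at because all 10 genes rose with cisplatin in WT. RefSeq promoters (GRCm38.p6, the mm10 assembly) were at hand for 7 of the 10 genes. Those of Actb, Tubb2b and Tubb6 were missing and were not searched. The search covered the 250 bases before the start on both strands for a CArG box (CC, then 6 bases that are each A or T, then GG), TATAAA and CCAAT. Those of 3 genes are shown: Actg1 for its CArG box, Tubb2a as the gene with the largest rise, and Tubb4b as the tubulin with the smallest. Capitals mark the matches.
Actg1, chr11:120348496-120348745, minus strand: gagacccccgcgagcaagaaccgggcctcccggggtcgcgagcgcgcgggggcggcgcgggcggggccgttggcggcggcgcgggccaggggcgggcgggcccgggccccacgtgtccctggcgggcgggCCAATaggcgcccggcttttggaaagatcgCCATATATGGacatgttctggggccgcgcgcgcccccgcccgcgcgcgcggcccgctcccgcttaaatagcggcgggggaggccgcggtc
Tubb2a, chr13:34078009-34078258, minus strand: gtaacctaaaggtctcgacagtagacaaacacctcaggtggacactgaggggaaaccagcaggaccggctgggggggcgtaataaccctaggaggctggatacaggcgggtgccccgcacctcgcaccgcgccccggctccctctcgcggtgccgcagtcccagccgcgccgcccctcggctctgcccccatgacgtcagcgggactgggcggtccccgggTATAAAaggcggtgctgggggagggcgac
Tubb4b, chr2:25224703-25224952, minus strand: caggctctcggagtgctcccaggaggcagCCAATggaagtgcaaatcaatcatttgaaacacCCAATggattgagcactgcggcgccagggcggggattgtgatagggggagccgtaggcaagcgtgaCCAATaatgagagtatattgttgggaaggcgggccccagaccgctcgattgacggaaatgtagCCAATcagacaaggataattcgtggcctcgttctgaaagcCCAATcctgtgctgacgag
The CArG box of Actg1 begins 90 bases before the start, and such a box was found in 1.47% of 32851 promoters. None of the 6 tubulin windows searched held one. Tubb2a had TATAAA, found in 12.4% of promoters, and none of the other 6 did. CCAAT was found in 33.8% of promoters, with 5 matches in Tubb4b, 2 in Tubb5 and 1 each in Tuba1a, Tuba1c and Actg1. These matches describe letters in the windows only.

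Other genes of the same machinery were read from lists of genes for folding, modification and binding. Of 21 genes for folding tubulin and actin, 12 rose with cisplatin in WT and 0 fell, against 22.3% of all genes that rose and 12.1% that fell, with a list median of 0.34. Cct5, a subunit of the TRiC chaperonin that folds both proteins, was at 142 ± 6.78 FPKM (SD, n = 3) untreated and 218 ± 20.6 (SD, n = 4) treated (0.61 ± 0.09, SE, limma adjusted p = 2.23e-04). Cct7 and Cct3, also TRiC subunits, rose by 0.49 and 0.53. Of 16 tubulin modification genes tested, 5 rose and 2 fell, near the shares of all genes, so the count shows nothing particular to that list. Svbp, the partner of the vasohibins that remove the last tyrosine of alpha-tubulin, rose by 0.73 ± 0.14 (SE), and Agbl3, a carboxypeptidase of the family that trims tubulin tails, fell by 0.58 ± 0.11 (SE). Ttc5, the autoregulation factor, was at 10.7 ± 0.979 FPKM (SD, n = 3) untreated and 11.4 ± 0.846 (SD, n = 4) treated and was not called (0.09 ± 0.10, SE, limma adjusted p = 0.532). Of 19 microtubule-binding genes, 8 rose and 1 fell. Map4, the main such protein outside neurons, rose by 0.90 ± 0.16, Stmn1, which binds free tubulin dimers, rose by 0.77 ± 0.21, and Map7, an epithelial microtubule stabiliser, fell by 0.63 ± 0.08 (SE).

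Of 27 genes for actin turnover, 22 rose with cisplatin in WT and 0 fell, with a list median of 0.54. This and the other WT counts of this paragraph stand beside the 22.3% of all genes that rose and the 12.1% that fell. Arpc1b, a subunit of the Arp2/3 nucleator, was at 43.1 ± 3.08 FPKM (SD, n = 3) untreated and 201 ± 75.9 (SD, n = 4) treated, a log2 fold change of 2.13 ± 0.24 (SE, limma adjusted p = 4.19e-05). Tmsb10, a thymosin that binds actin monomer, rose by 2.15 ± 0.28, and the filament-severing factors Cfl1 and Dstn by 0.86 ± 0.10 and 0.75 ± 0.08 (SE). Of 21 crosslinking and membrane-link genes 12 rose and 1 fell, among them the tropomyosins Tpm3 at 1.24 ± 0.15 and Tpm4 at 1.60 ± 0.22 (SE). Of 12 genes of the SRF pathway 5 rose and 0 fell: Srf itself by 0.40 ± 0.11 (SE, limma adjusted p = 0.0153), Mkl1, which encodes the cofactor MRTF-A, by 0.53 ± 0.18, Cyr61 by 2.80 ± 0.33, Tagln2 by 1.64 ± 0.19 and Cnn2 by 0.67 ± 0.18 (SE). In cKO, where 0% of all genes rose after cisplatin and 0.0197% fell, 0 genes of these 6 lists were called, as for nearly all genes. Of the 3 other tubulins tested 1 rose, the gamma-tubulin gene Tubg1, by 0.41 ± 0.11 (SE). Of the 2 muscle actins tested 0 were called, and Acta2, the smooth muscle actin, was not called (0.66 ± 0.25, SE, limma adjusted p = 0.0541).

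Actb was set beside 15 other genes often used as references. In WT after cisplatin 4 of the 15 rose and 1 fell, near the 22.3% and 12.1% of all genes that did so. Rplp0 at 1.25 ± 0.27, Rpl13a at 0.73 ± 0.17, Hprt at 0.72 ± 0.12 and Eef1a1 at 0.54 ± 0.14 rose, and Sdha fell by 0.54 ± 0.11 (SE, limma adjusted p = 0.00242). The rise of Actb, 1.01 ± 0.13, lay above all of these but that of Rplp0. Ywhaz, at 328 ± 18.6 FPKM (SD, n = 3) untreated and 329 ± 19.9 (SD, n = 4) treated, and Pgk1, at 350 ± 17.3 and 349 ± 29.8, had log2 fold changes of 0.01 ± 0.12 and 0.00 ± 0.10 (SE). Gapdh was at 81.0 ± 76.1 FPKM (SD, n = 3) untreated, a spread nearly as large as its mean, and 12.2 ± 2.41 (SD, n = 4) treated, and was not called.

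**Figure D4:**
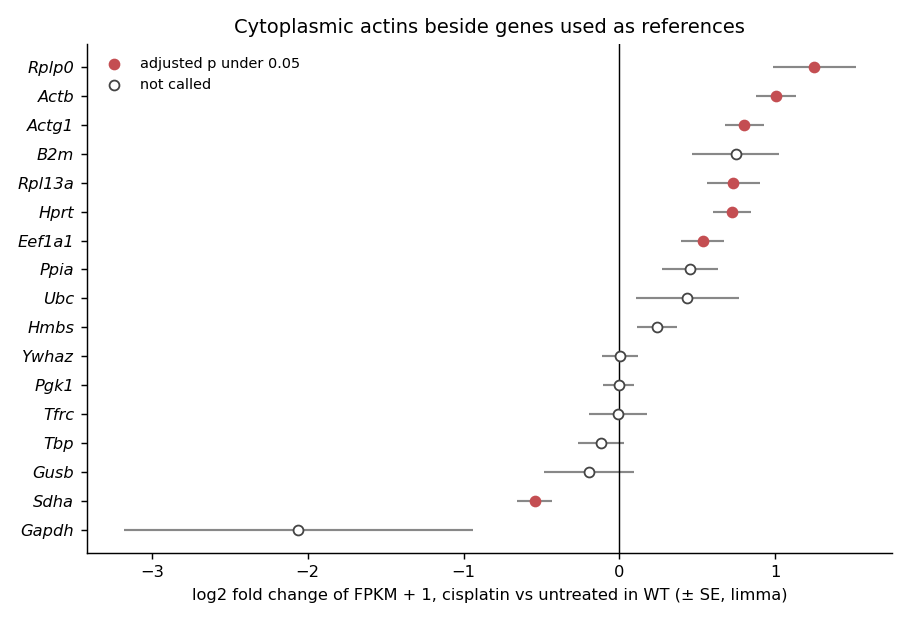
Log2 fold change of FPKM + 1 with cisplatin in WT (horizontal axis, ± SE from limma) for the 2 cytoplasmic actins and 15 reference genes; filled points have an adjusted p under 0.05. Actb at 1.01 and Actg1 at 0.80 lie near the top, Ywhaz and Pgk1 at 0, and Sdha at −0.54.

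Tissue injury genes and markers of cell types were read in the same libraries, and their counts in WT stand beside the 22.3% of all genes that rose and the 12.1% that fell. In whole kidney RNA a larger number of cells of a type and more RNA per cell cannot be told apart. All 14 tubular injury genes rose in WT, and their summed FPKM was 698 to 752 in untreated WT, 615 to 875 in untreated cKO, 10973 to 18720 in WT cisplatin and 779 to 4104 in cKO cisplatin. Of 14 proximal tubule genes 0 rose and 10 fell, with sums of 9689 to 10034 FPKM untreated and 3275 to 6063 treated in WT. Of 11 macrophage markers tested 5 rose, with sums of 229 to 279 FPKM in untreated WT, 175 to 273 in untreated cKO, 315 to 983 in WT cisplatin and 196 to 230 in cKO cisplatin. Of 11 fibroblast and pericyte markers 3 rose, near the share of all genes, with sums of 122 to 156, 115 to 172, 102 to 664 and 92.3 to 172 FPKM in the same order. Of 12 cell cycle genes 7 rose, with sums of 7.94 to 11.1, 9.16 to 14.2, 11.9 to 84.6 and 4.30 to 11.3 FPKM. No marker of these lists was at 0 in all 14 libraries. In WT cisplatin replicate 3 the macrophage, fibroblast and cell cycle sums were highest, as were 9 of the 10 tubulin and actin genes. The same library had the highest injury sum, 18720 FPKM, and the lowest proximal tubule sum, 3275 FPKM. In WT cisplatin replicate 1 the fibroblast sum of 102 FPKM lay below all untreated WT libraries and the cell cycle sum of 11.9 just above them. Its macrophage sum of 319 FPKM and its injury sum of 11566 FPKM also lay above all untreated WT libraries. The 10 genes averaged 1.28 log2 units above untreated WT in this library, with a lowest value of 0.71 and a highest of 2.19. Among the other markers tested in WT, 5 of 9 thick limb and distal tubule genes, 1 of 8 collecting duct, 1 of 5 lymphocyte, 1 of 9 endothelial, 1 of 8 podocyte and 6 of 6 red blood cell genes fell. Of the same lists, 1 thick limb and distal tubule gene and 1 collecting duct gene rose, as did 1 of 3 neutrophil and 1 of 3 multiciliated cell genes, and 0 of 6 smooth muscle genes were called. Neuronal markers, relevant because Tuba1a, Tubb2a and Tubb2b are known from neurons, summed to 6.08 to 6.81 FPKM in untreated WT and 8.05 to 17.0 in WT cisplatin, with Snap25 and Th at 0 in all libraries. Only 2 of the 12 neuronal markers passed the filter, and 1 of them, Uchl1, rose. The red blood cell genes, summed, had a median of 819 FPKM in untreated WT and 0.670 FPKM in WT cisplatin. Treated and untreated WT kidneys thus differed almost completely in red blood cell RNA. Whether the blood content or the handling of the kidneys differed between these groups was not tested. The part of cell numbers or of blood content in the levels of the 10 genes was not tested.

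**Figure D5:**
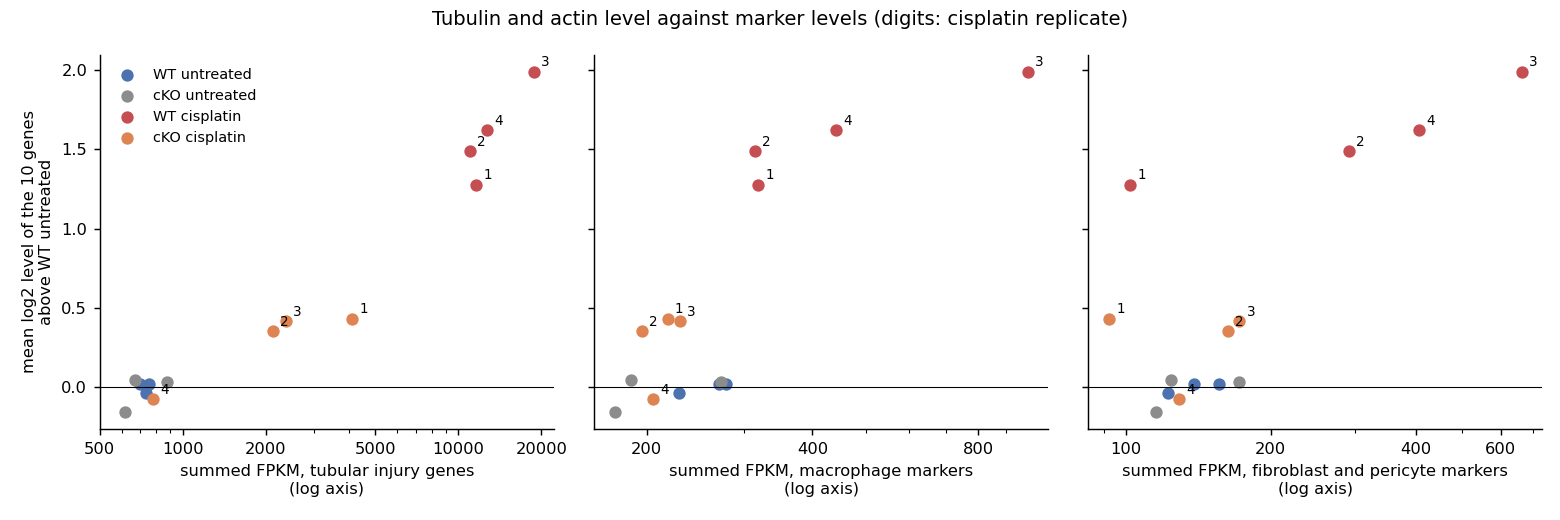
Mean log2 level of the 10 genes above untreated WT (vertical axis) against summed FPKM of tubular injury genes, macrophage markers, and fibroblast and pericyte markers (horizontal log axes), 1 point per library, with the replicate number beside cisplatin points. WT cisplatin replicate 1 sits at 1.28, with sums of 11566 for injury, 319 for macrophages and 102 for fibroblasts. The point of cKO cisplatin replicate 4 is at −0.08 with an injury sum of 779.

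Genes with the most similar pattern were found by the root mean square difference of centred log2(FPKM + 1) over the 14 libraries, where 0 is an identical pattern. Actb was nearest to Cfl1 (0.0958), Gar1 (0.102) and Cd151 (0.107), and Actg1 to Kpnb1 (0.118), Tfe3 (0.119) and Wdr1 (0.127). Actb was the member nearest to Actg1, at 0.137. Tubb5 was nearest to the tropomyosin gene Tpm4 (0.134), the complement gene C1qa (0.145), one of the macrophage markers, and Tgfb1 (0.146). Tubb6 was nearest to Col18a1 (0.166), the alpha-actinin gene Actn1 (0.185) and Arpc1b (0.192). Tubb2a and Tubb2b shared Litaf among their nearest genes, at 0.205 and 0.189. The nearest genes of Tuba1a, Tuba1b, Tuba1c and Tubb4b, in that order, were Lgals3bp (0.146), Ifi27 (0.124), Rap2b (0.141) and Vmp1 (0.146). Tubb4b lay 0.245 from its nearest member, Actg1, which was in place 323 among all genes. Tubb6 lay farthest from its nearest member, Tubb2a, at 0.284, and that member was in place 41.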

How the data were processed

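Total RNA was taken from kidney lysates with Trizol for Illumina TruSeq libraries, per the labels' protocols. The submitters' processing notes name HISAT2 2.0.5 and the mm10 build; the counter, annotation release and strand setting are not given in the sources used here. The authors deposited 1 table of FPKM values for 49584 genes and 14 libraries, with 0 columns lacking a sample and 0 identical library pairs. FPKM was used as deposited, as log2(FPKM + 1), so fold changes of low genes are understated. Genes with a mean FPKM of at least 0.5 were kept (15193, with 34391 removed). A group-means model was fitted with limma 3.58.1 (R 4.3.3) over all 14 libraries with a mean-variance trend, with two-sided tests, p-values adjusted after Benjamini and Hochberg over all kept genes, and calls at an adjusted p under 0.05. The fit was tested on simulated data. Depth was read from the FPKM steps, and counting error is the only error it limits. Of the gene IDs, 99.5% were in GENCODE M21, which gave transcripts and overlaps, and promoters came from RefSeq.

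The members and lists were chosen with earlier results of these data known. Genes named are the 10 members, up to 3 per list with the smallest p in WT (all 15 reference genes), the 3 genes nearest in pattern to a member, and Ripk4. Ttc5, Srf, Mkl1, Tmsb10, Stmn1, Tuba4a, Umod and Havcr1 were added for their known role after their values were seen. The lists covered other tubulins, muscle actins, folding, modification, microtubule binding, actin turnover, crosslinking, the SRF pathway, reference genes, tubular injury, cycling cells, and markers of proximal tubule, thick limb and distal tubule, collecting duct, macrophages, neutrophils, lymphocytes, fibroblasts with pericytes, smooth muscle, endothelium, podocytes, red blood cells, multiciliated cells and neurons. Alternatives varied the pseudocount, the filter, scaling, the libraries in the fit and their weights.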

Additional observations from a re-analysis of the deposited data

Results flagged for a closer look

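The cisplatin response was smaller in cKO than in WT, by the limma test of the difference, for 8 of the 10 genes. Of all genes tested, 2.65% were called in that direction. The count of the 10 was not stable, at 2 to 9 when each library was left out. The log2 differences of the responses, cKO minus WT, were −1.31 for Tuba1a, −1.05 for Tuba1b, −1.33 for Tuba1c, −1.92 for Tubb2a, −1.80 for Tubb2b, −1.34 for Tubb5, −0.92 for Actb and −0.81 for Actg1.

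In WT cisplatin, replicate 3 stood above the other 3 libraries for Tuba1b, by 0.874 of the group's range, and for Tubb2b, by 0.902 of it, past Dixon's critical value for 4 libraries. Endothelial markers, summed, were low in WT cisplatin replicate 1, at 160 FPKM against 356 to 361 in the other 3, a gap of 0.974 of the range. Red blood cell genes, summed, were high in cKO cisplatin replicate 4, at 773 FPKM, a gap of 0.998 of the range. The other flags were the sums of other tubulins (0.841) and of reference genes (0.885) in WT cisplatin. In all, 68 sets of 4 values were examined, for genes and list sums in the WT and cKO cisplatin groups, and 6 passed the critical value. Chance flags about 1 in 20, but these sets share the same libraries and are not independent.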

How the results depend on the processing

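The count of the 10 genes called stayed at 10 for cisplatin in WT, at 10 for cKO against WT after cisplatin and at 0 for cKO against WT untreated in every setting run, including leaving out each library in turn. For cisplatin in cKO it was 3 with array weights (Tuba1b, Tubb2a and Tubb2b), where 556 of all genes rose and 318 fell. In the main fit 0 of all genes rose and 3 fell. The count of the 10 was 0 to 1 when each library was left out. It was 1 without cKO cisplatin replicate 4, where 172 of all genes rose and 115 fell. It was also 1 without that library and both cisplatin libraries numbered 1, an alternative chosen after seeing the data. There 275 of all genes rose and 135 fell. For the difference of the responses it was 5 with no filter on low values, 2 without the 3 cisplatin libraries whose titles start with E4 (WT replicate 2, cKO replicates 2 and 3), and 2 to 9 when each library was left out. It was 6 with the same FPKM sum in every library, 9 with median-of-ratios scaling, and 10 with array weights or without both libraries numbered 1. Of all genes, 403 were called lower in the main fit, 167 with no filter and 36 without the E4 libraries. When each library was left out it was 49 to 1541 genes. It was 315 genes with the same sum, 382 with median-of-ratios scaling, 2266 with array weights and 1503 without both libraries numbered 1. The cause was not tested. Actg1 in cKO with cisplatin, −0.01, changed sign to 0.0676 with array weights, 0.0197 without both libraries numbered 1 and 0.146 in the added alternative. When each library was left out it ran from −0.0791 (without cKO cisplatin replicate 2) to 0.0674 (without cKO cisplatin replicate 4), with 0.0268 without cKO untreated replicate 3 and 0.0197 without cKO cisplatin replicate 1. It was called in 0 of these. The median of all genes in WT was 0.10 as deposited and near 0 after median-of-ratios scaling or quantile normalization. No untreated library has a title starting with E4. No paired analysis was possible because the labels give no replicate numbers shared between groups. The lowest read count of any of the 10 genes in any library was 286.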
